A study of Mus musculus with 21 samples.

Results

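The 9 genes described here are T, Mixl1, Eomes, Gsc, Mesp1, Lhx1, Evx1, Fgf8 and Wnt3, genes of the primitive streak and of the mesendoderm that leaves it. They were taken by symbol from 78317 gene rows, and each symbol had 1 row. RNA was sequenced in 21 libraries of E14 mouse embryonic stem (ES) cells, an established line from the blastocyst, in 7 groups of 3 libraries. The ES group was untreated and in standard culture. Differentiating cells received vehicle or 20 µM of the vitamin B6 form pyridoxine (VB6), and each arm was taken at days 3, 5 and 7. The sources used here do not give the start of differentiation, the labels name no genetic change, and the series' title asks whether vitamin B6 promotes endoderm. No label says that libraries within a group are separate cultures, so p-values measure the spread between libraries, which may be technical.

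The primitive streak is the posterior region of the gastrulating embryo through which epiblast cells leave to become mesoderm and definitive endoderm. Wnt3 and Nodal start it, the T-box factors T (Brachyury) and Eomes act in it early, and Fgf8 is needed for cells to move away from it. Mixl1, Gsc and Lhx1 are homeobox factors of its anterior and mesendodermal cells, Evx1 is a homeobox factor of its posterior part, and Mesp1 is a basic helix-loop-helix factor of the first cardiac mesoderm. Several of them also act elsewhere: Eomes, Lhx1 and Gsc in the anterior visceral endoderm, Wnt3 in the posterior visceral endoderm, Lhx1 in intermediate mesoderm, and Fgf8 and Evx1 in the neural tube.

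The genes lie on different chromosomes except for Lhx1 and Wnt3, which are far apart on chromosome 11. In mm10 with the GENCODE M21 annotation, T (ENSMUSG00000062327) spans chr17:8434423-8442496, Eomes (ENSMUSG00000032446) chr9:118478212-118486132, Mixl1 (ENSMUSG00000026497) chr1:180693043-180697034 and Gsc (ENSMUSG00000021095) chr12:104471209-104473330. Lhx1 (ENSMUSG00000018698) spans chr11:84518284-84525535, Wnt3 (ENSMUSG00000000125) chr11:103774150-103817957, Evx1 (ENSMUSG00000005503) chr6:52313498-52318378, Fgf8 (ENSMUSG00000025219) chr19:45736798-45742915 and Mesp1 (ENSMUSG00000030544) chr7:79792241-79793788. An antisense gene overlaps 2 of them, Gm33460 at Eomes and Evx1os at Evx1. Whether the counting used strand is not stated, so reads of these pairs may not be told apart.

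The promoters of 3 genes are shown because their genes mark the early and the late part of the course described next. Eomes was high from day 3, whereas T and Evx1 were low at day 3 and had their highest group means at day 7. Between days 5 and 7, the step of T in vehicle and that of Evx1 with VB6 were not called. Each line gives the 250 bases before the start site on the plus strand (RefSeq, GRCm38.p6, the assembly also called mm10), from chr17:8434173-8434422 for T, chr6:52313248-52313497 for Evx1 and chr9:118477939-118478188 for Eomes. Capitals mark the core sequence bound by the TCF/LEF factors of the Wnt pathway.
T: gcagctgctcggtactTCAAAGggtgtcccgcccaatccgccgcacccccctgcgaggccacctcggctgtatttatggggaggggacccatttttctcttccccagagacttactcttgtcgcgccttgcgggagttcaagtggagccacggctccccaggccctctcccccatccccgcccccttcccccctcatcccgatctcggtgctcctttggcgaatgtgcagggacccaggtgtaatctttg
Evx1: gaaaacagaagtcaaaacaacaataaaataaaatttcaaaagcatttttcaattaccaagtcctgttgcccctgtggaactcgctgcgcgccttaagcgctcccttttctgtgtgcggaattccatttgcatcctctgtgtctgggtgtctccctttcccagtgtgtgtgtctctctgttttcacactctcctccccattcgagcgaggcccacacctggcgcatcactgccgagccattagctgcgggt
Eomes: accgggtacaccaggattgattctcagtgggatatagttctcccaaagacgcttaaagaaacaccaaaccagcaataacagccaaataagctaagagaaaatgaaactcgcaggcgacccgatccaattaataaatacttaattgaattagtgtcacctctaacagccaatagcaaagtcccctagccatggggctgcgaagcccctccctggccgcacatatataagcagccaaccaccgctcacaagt
RefSeq promoters of 300 bases, 250 before to 50 after the start, matched 7 of the 9 genes (T, Eomes, Gsc, Mesp1, Lhx1, Evx1 and Wnt3). The RefSeq and GENCODE starts differ most for Mesp1 (RefSeq minus GENCODE position of -198) and Gsc (-94), both on the minus strand. The sites given next for Mesp1 therefore lie inside its GENCODE span given above. The TCF/LEF core CTTTGA, searched on both strands, lay in the promoters of T (at base -234 from the start, as TCAAAG) and Mesp1 (at bases -72 and -31), and in 16% of all 32851 promoters of that length. The T-box element AGGTGTGA was found in the promoter of Mesp1 (at base 6 after the start) and in 1.28% of all promoters. The FOXH1 core AATCCACA and the SMAD palindrome GTCTAGAC were in none of the 7 windows and in 0.86% and 0.21% of all. The TATA box TATAAA was found for Gsc (13.6% of all promoters) and the CCAAT box CCAAT for T, Eomes, Mesp1, Lhx1 and Wnt3 (37.4% of all). GC content of the 7 promoters ran from 47.3% (Eomes) to 65.7% (Lhx1 and Wnt3), against a median of 52.7% over all promoters.

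Libraries held 15882380 to 21629730 expected counts, and pairs of libraries of a group differed by a chi-square per gene of at least 2.14, where counting error alone gives about 1. The fragment length implied by the deposited values was 227 ± 8.69 nt (SD, n = 3) for vehicle day 5, and for VB6 day 7 it was 266 ± 7.77 nt, whereas the means of the other 5 groups lay between 307 and 312 nt. The GC content averaged over counted genes was 47.1% and 48.2% in those groups and 48.3 to 49.0% in the others. At days 5 and 7, vitamin B6 and short fragments therefore cannot be told apart by design, and "corrected" below means a fit that takes out, library by library, the trend with GC content and length. The correction moved the day 5 values of Gsc, Fgf8 and Evx1 most, whose transcripts have a GC content of 66.6%, 62.8% and 61.2%, where the other tested genes of the 9 lie at 48.5 to 53.9%. Levels below are CPM (counts scaled by TMM to one common library size) per library, and changes are log2 fold changes ± SE from edgeR's quasi-likelihood test, called at a Benjamini-Hochberg adjusted p under 0.05. In RNA from whole cultures, fewer cells of a type and less RNA per cell cannot be told apart.

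Markers of other cells in which these genes are made moved over the same days. The summed TPM of 7 anterior visceral endoderm markers was 28.7 to 36.7 in the ES libraries, 246 to 301 in vehicle day 3, 218 to 227 in vehicle day 5 and 93.1 to 106 in vehicle day 7, and in VB6 237 to 258, 165 to 185 and 95.2 to 114. At vehicle day 3 the sum included Otx2 (206 CPM, also an epiblast marker) and Lefty1 (91.7 CPM). CPM is not per length, and their shares of the summed TPM were not computed. From ES to vehicle day 3, 5 of the 7 were called higher and 1 lower, with a median log2 fold change of 3.29. Over all genes 33.1% rose and 31.8% fell. Cer1, a marker of that list, had 0 counts in the ES libraries and a mean of 0.173 CPM at vehicle day 3, and Hhex fell from 11.2 to 4.89 CPM. The sum of 12 visceral endoderm markers went from 28.1 to 33.1 TPM in ES to 3329 to 3535 TPM in vehicle day 7 and 4032 to 5135 TPM in VB6 day 7, while Afp and Apoa4 were at 0 counts in ES. The sum of 8 epiblast markers was 2107 to 2650 TPM in ES, 2368 to 2748 in vehicle day 3 and 436 to 528 in vehicle day 7. Their part in the results below was not tested. Of 8 trophoblast markers, Tpbpa had 0 counts in 6 of the 7 groups. The sum was 35.4 to 46.0 TPM in ES, 11.8 to 14.0 in vehicle day 3, 36.2 to 53.0 in vehicle day 7 and 64.5 to 79.0 in VB6 day 7. Between the arms at day 7, 0 of 6 tested trophoblast markers were called higher and 0 lower as counted (median -0.001). Visceral endoderm markers had a median of 0.009. On log2(TPM + 1) with limma, 82.9% of all calls there were higher, against 51.1% as counted. The TPM sums are therefore not read as a difference between the arms. Of 9 neural and midbrain-hindbrain markers, Wnt1 had 0 counts before day 7, and the sum ran from 6.08 to 34.4 TPM over all libraries. The 6 intermediate mesoderm markers summed to 18.2 to 29.7 TPM in ES and 34.7 to 62.9 TPM in the other groups, and the 7 naive stem cell markers went from 617 to 863 TPM in ES to 56.5 to 132 TPM in the other groups.

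**Figure D1:**
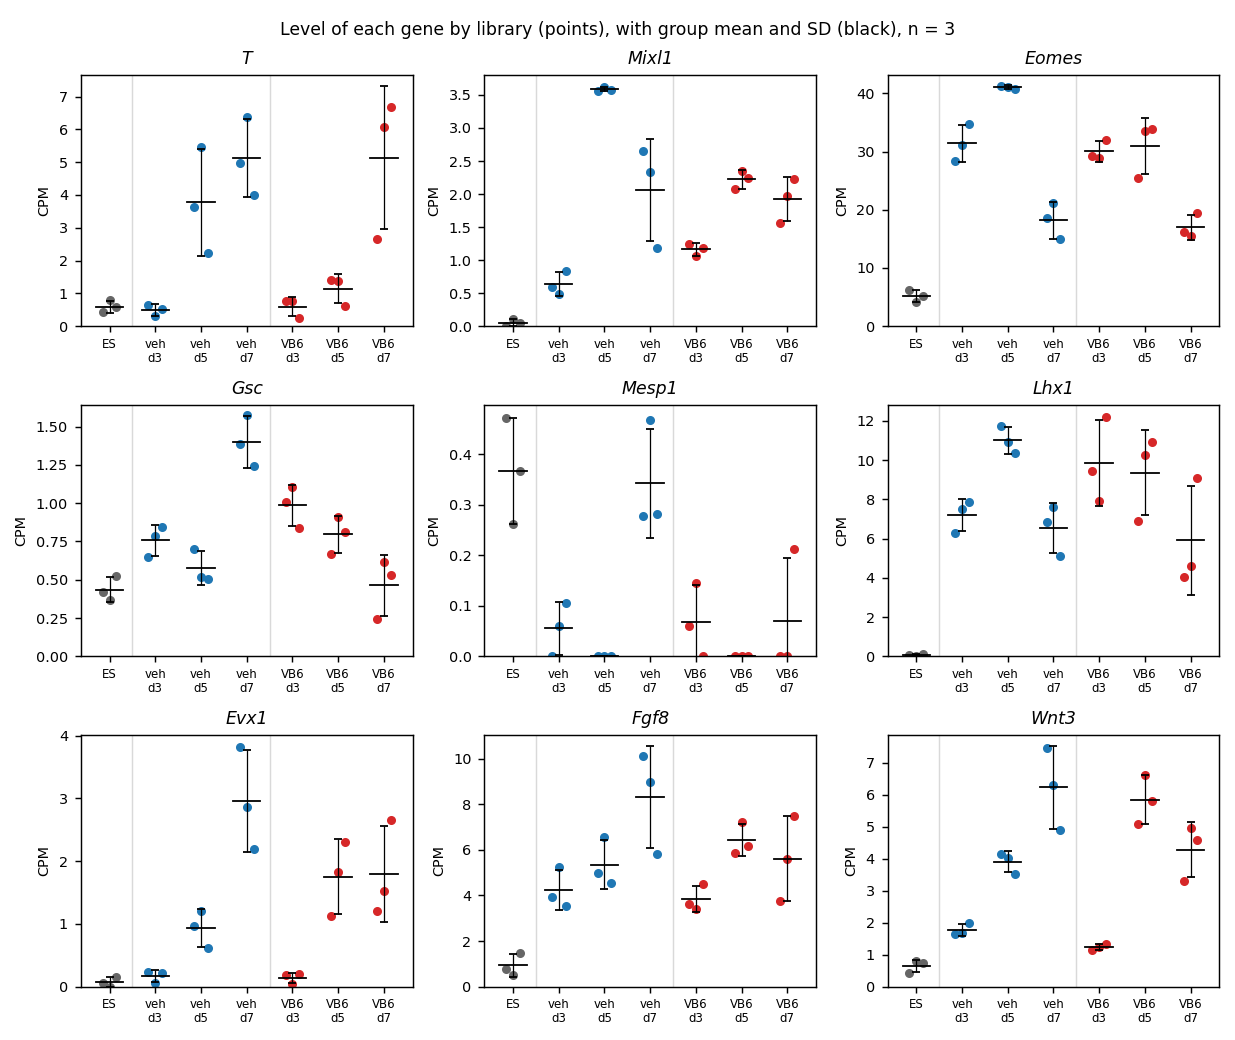
Level of each of the 9 genes in CPM (vertical axes from 0) in every library, with the mean and SD of each group of 3 (horizontal axis: ES, vehicle days 3, 5 and 7, VB6 days 3, 5 and 7). Lhx1 and Eomes are already high at day 3, whereas T and Evx1 are low there and high at day 7, and T at day 5 is lower with VB6 (0.625 to 1.40 CPM) than with vehicle (2.24 to 5.47 CPM).

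The 9 genes did not come on together. From ES to vehicle day 3, 5 of the 8 tested genes rose (Lhx1, Mixl1, Eomes, Fgf8 and Wnt3), none fell, where 33.1% of all genes tested rose and 31.8% fell (64.9% called). From vehicle day 3 to day 5, 6 rose (T, Mixl1, Evx1, Wnt3, Lhx1 and Eomes) and none fell, beside 31.9% and 33.4% of all genes (65.3% called). From vehicle day 3 to day 7, where neither group had short fragments, 6 rose (Evx1, T, Wnt3, Mixl1, Fgf8 and Gsc) and Eomes fell, beside 34.3% and 33.1% of all genes (67.4% called). The median change of the 8 genes in that comparison was 1.32, and over all genes it was -0.01. The shares called in either direction are near those of all genes and are read as no result about the 9 genes. In the VB6 arm, 6 of 8 rose and none fell from ES to day 3 (33.2% and 32.1% of all genes, 65.3% called), and 4 rose and none fell from day 3 to day 5 (29.9% and 26.4%, 56.2% called). From VB6 day 5 to day 7 T rose and Eomes, Lhx1 and Wnt3 fell (27.3% of all genes rose and 27.3% fell, 54.5% called), and from VB6 day 3 to day 7, 4 rose and 3 fell (36.1% and 34.8%, 70.9% called). The vehicle and VB6 values of day 3 share the ES libraries. From vehicle day 5 to day 7, 4 rose and 3 fell (35.2% and 31.1% of all genes, 66.3% called). The corrected fit of this step called 4 of the 8 in all, beside 10538 of 17416 genes. Libraries did not overlap for 6 of the 8 genes between ES and vehicle day 3 (66.1% of all genes), 6 between vehicle days 3 and 5 (70.8%), 6 between vehicle days 5 and 7 (70.2%) and 7 between vehicle days 3 and 7 (70.5%). In the VB6 arm these counts were 6 between ES and day 3 (68% of all genes), 4 between days 3 and 5 (63.3%), 4 between days 5 and 7 (59.4%) and 6 between days 3 and 7 (74.3%). Mesp1, with 50 counts in all 21 libraries, did not pass the filter on low counts.

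Wnt3, the ligand that starts the streak, was at 0.419, 0.783 and 0.734 CPM in the ES libraries. With vehicle its 3 libraries had 1.65, 1.69 and 2.0 CPM at day 3, 4.16, 4.03 and 3.53 CPM at day 5, and 7.48, 6.30 and 4.91 CPM at day 7, and no group overlapped the one before. It rose by 1.46 ± 0.27 from ES to day 3 (adjusted p = 6.21e-05) and by 1.80 ± 0.20 from day 3 to day 7 (adjusted p = 3.69e-08). Vehicle day 7 against day 5 was 0.67 ± 0.18 as counted (adjusted p = 0.00256). That call was lost corrected (0.375 ± 0.18, adjusted p = 0.0754) and on log2(TPM + 0.1) with limma (0.412, adjusted p = 0.112). With VB6 the libraries had 1.13, 1.25 and 1.33 CPM at day 3, 5.09, 6.62 and 5.81 CPM at day 5, and 3.31, 4.95 and 4.57 CPM at day 7. In that arm the highest values were therefore at day 5: Wnt3 rose by 2.23 ± 0.21 from day 3 to day 5 (adjusted p = 4.66e-09) and fell by 0.45 ± 0.18 from day 5 to day 7 (adjusted p = 0.0412). The fall lost its call without either of 2 VB6 day 5 libraries or either of 2 VB6 day 7 libraries (adjusted p = 0.0532 to 0.205), and also with DESeq2 (0.0704), with no filter (0.0876) and on the TPM scales with limma (0.526 and 0.611).

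Fgf8, the secreted factor that drives cells out of the streak, had the highest TPM of the 9 genes in vehicle day 7 and in VB6 day 7. Its libraries were at 0.785, 0.522 and 1.47 CPM in ES, 3.94, 5.24 and 3.53 CPM in vehicle day 3, 4.97, 6.57 and 4.53 CPM in vehicle day 5, and 10.1, 8.99 and 5.81 CPM in vehicle day 7. It rose by 2.18 ± 0.33 from ES to vehicle day 3 (adjusted p = 3.50e-06) and by 0.98 ± 0.25 from vehicle day 3 to day 7 (adjusted p = 0.00129). With VB6 the levels were 3.63, 3.42 and 4.50 CPM at day 3, 5.87, 7.25 and 6.19 CPM at day 5 and 3.74, 5.62 and 7.49 CPM at day 7. The steps that involve a group of short fragments depended on the correction: vehicle day 7 against day 5 went from 0.64 ± 0.24 (adjusted p = 0.0233) to -0.54 ± 0.22 corrected (adjusted p = 0.0404). As counted, that call was lost without any of 4 libraries (adjusted p = 0.0684 to 0.127).

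T, the factor that marks the streak and later the notochord, was still low at day 3. Its libraries had 0.419, 0.783 and 0.577 CPM in ES and 0.648, 0.301 and 0.526 CPM in vehicle day 3, which overlap (change -0.26 ± 0.58, adjusted p = 0.712). They had 3.62, 5.47 and 2.24 CPM in vehicle day 5 and 4.98, 6.36 and 4.01 CPM in vehicle day 7, all above day 3. T rose by 2.92 ± 0.45 from vehicle day 3 to day 5 (adjusted p = 4.83e-06) and by 3.35 ± 0.44 from day 3 to day 7 (adjusted p = 3.84e-07). The vehicle libraries of days 5 and 7 overlap (0.44 ± 0.33, adjusted p = 0.244, and 0.09 ± 0.32 corrected, adjusted p = 0.83). That step was called in 0 of 15 alternative settings. With VB6 the libraries had 0.773, 0.770 and 0.247 CPM at day 3, 1.40, 1.39 and 0.625 CPM at day 5, and 2.65, 6.07 and 6.69 CPM at day 7. There T changed by 0.97 ± 0.50 from day 3 to day 5 (adjusted p = 0.103) and rose by 2.15 ± 0.38 from day 5 to day 7 (adjusted p = 3.92e-05). Without VB6 day 5 replicate 3 the first of these steps was called (1.23, adjusted p = 0.047).

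Eomes, the T-box factor needed for definitive endoderm, was present in ES cells and highest in the middle of the course. Its libraries had 6.18, 4.23 and 5.14 CPM in ES, 28.4, 31.1 and 34.7 CPM in vehicle day 3, 41.3, 41.2 and 40.7 CPM in vehicle day 5 and 18.6, 21.2 and 14.9 CPM in vehicle day 7. No consecutive pair of these groups overlapped. Eomes rose by 2.60 ± 0.15 from ES to day 3 (adjusted p = 2.60e-13), rose by 0.39 ± 0.12 to day 5 (adjusted p = 0.00685) and fell by 1.17 ± 0.13 from day 5 to day 7 (adjusted p = 1.74e-08). With VB6 it had 29.2, 28.8 and 32.0 CPM at day 3, 25.5, 33.5 and 33.9 CPM at day 5 and 16.1, 15.5 and 19.4 CPM at day 7. The VB6 libraries of days 3 and 5 overlap (0.05 ± 0.12, adjusted p = 0.774), and the fall from day 5 to day 7 was 0.86 ± 0.13 (log2 fold change -0.86, adjusted p = 4.04e-06). The antisense gene Gm33460 held 8.22 to 44.7 counts per library where Eomes held 81.3 to 765.

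Lhx1, a LIM homeobox factor of the anterior streak and node, was the gene with the widest step at day 3. Over the 3 ES libraries it had 3.28 expected counts in all (0.0523, 0 and 0.105 CPM), under the 3 counts per library (0.139 to 0.189 CPM) that a count of 0 allows by counting error alone. In vehicle it was at 6.30, 7.52 and 7.84 CPM at day 3, 11.7, 10.9 and 10.4 CPM at day 5 and 6.87, 7.59 and 5.13 CPM at day 7. The ratio of vehicle day 3 to ES was 127, with a 95% interval of 47.0 to 674 (exact binomial, counting error only). Lhx1 rose by 0.61 ± 0.23 from vehicle day 3 to day 5 (adjusted p = 0.0235) and fell by 0.75 ± 0.23 from day 5 to day 7 (adjusted p = 0.00624), and the rise lost its call without either of 2 libraries (adjusted p = 0.0674 and 0.0855). With VB6 the libraries had 9.45, 7.90 and 12.2 CPM at day 3, 6.88, 10.3 and 10.9 CPM at day 5 and 4.04, 4.61 and 9.08 CPM at day 7, and those of days 3 and 5 overlap. Those of days 5 and 7 overlap too, with a change of -0.651 ± 0.235 (adjusted p = 0.0225). The fall was called in 9 of 15 settings, and not on the TPM scales with limma (adjusted p = 0.261 and 0.281).

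Mixl1, a homeobox factor of nascent mesendoderm, had 3 counts over the ES libraries (0, 0.104 and 0.0524 CPM). In vehicle it had 0.589, 0.482 and 0.842 CPM at day 3, 3.56, 3.63 and 3.58 CPM at day 5 and 2.66, 2.34 and 1.18 CPM at day 7, a peak at day 5 without overlap on either side. The ratio to ES was 12.4 at vehicle day 3 (95% interval 3.88 to 62.9) and 68.6 at vehicle day 5 (23.1 to 336). From vehicle day 5 to day 7 Mixl1 fell by 0.80 ± 0.25 (adjusted p = 0.00792), which without vehicle day 7 replicate 3 was a change of -0.52 (adjusted p = 0.0662). With VB6 it had 1.25, 1.06 and 1.19 CPM at day 3, 2.07, 2.35 and 2.25 CPM at day 5 and 1.57, 1.97 and 2.23 CPM at day 7. In that arm it rose by 0.94 ± 0.28 from day 3 to day 5 (adjusted p = 0.00656) and the libraries of days 5 and 7 overlap.

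Evx1, a homeobox factor of the posterior streak, came late in both arms. It had 4 counts over the ES libraries and 9 and 8 counts over vehicle day 3 and VB6 day 3, so day 3 could not be told from ES at this depth (ratio for vehicle day 3 of 2.45, 95% interval 0.684 to 10.9). In vehicle it had 0.972, 1.21 and 0.616 CPM at day 5 and 3.82, 2.86 and 2.20 CPM at day 7. It rose by 4.06 ± 0.50 from vehicle day 3 to day 7 (adjusted p = 1.58e-07). From vehicle day 5 to day 7 it rose by 1.66 ± 0.38 (adjusted p = 0.000512), against 0.82 ± 0.36 corrected (adjusted p = 0.0513). With VB6 it had 1.12, 1.82 and 2.31 CPM at day 5 and 1.21, 1.52 and 2.66 CPM at day 7, which overlap, and it rose by 3.59 ± 0.54 from day 3 to day 5 (adjusted p = 4.68e-06). The antisense gene Evx1os was also near 0 in ES (0 to 1 counts per library) and at 9 to 23.5 counts per library in vehicle day 7.

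Gsc, the organizer homeobox factor, stayed low throughout. Its libraries had 0.419, 0.366 and 0.525 CPM in ES, 0.648, 0.783 and 0.842 CPM in vehicle day 3, 0.702, 0.518 and 0.504 CPM in vehicle day 5 and 1.38, 1.58 and 1.24 CPM in vehicle day 7. It rose by 0.88 ± 0.30 from vehicle day 3 to day 7 (adjusted p = 0.0142). That call was lost without vehicle day 3 replicate 1 (0.78, adjusted p = 0.0541) and with no filter on low counts (0.884, adjusted p = 0.0897). From vehicle day 5 to day 7 it rose by 1.271 ± 0.315 as counted (adjusted p = 0.00113), against 0.099 ± 0.333 corrected (adjusted p = 0.813). With VB6 it had 1.01, 1.11 and 0.840 CPM at day 3, 0.671, 0.912 and 0.813 CPM at day 5 and 0.241, 0.619 and 0.531 CPM at day 7. From VB6 day 3 to day 7 it fell by 1.06 ± 0.34 (adjusted p = 0.00696), against -0.70 ± 0.35 corrected (adjusted p = 0.0769).

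Mesp1 counts were 9, 5 and 7 in the ES libraries, 0, 1 and 2 in vehicle day 3 and 5, 8 and 5 in vehicle day 7. All 3 libraries of vehicle day 5 and all 3 of VB6 day 5 had 0 counts, which allows up to 0.189 CPM in a library. With VB6 it had 1, 3 and 0 counts at day 3 and 0, 0 and 4 at day 7. Most of the few counts were thus in ES and vehicle day 7, and the ratio of vehicle day 7 to ES was 0.928 (95% interval 0.466 to 1.83). With no filter on low counts, edgeR's test gave an adjusted p of 0.0424 for vehicle day 3 against ES and 0.000635 for vehicle day 7 against day 5. The second of these involves a group of short fragments. The GC content of the Mesp1 transcript is 63.1%, and no corrected value was obtained for this gene.

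**Figure D2:**
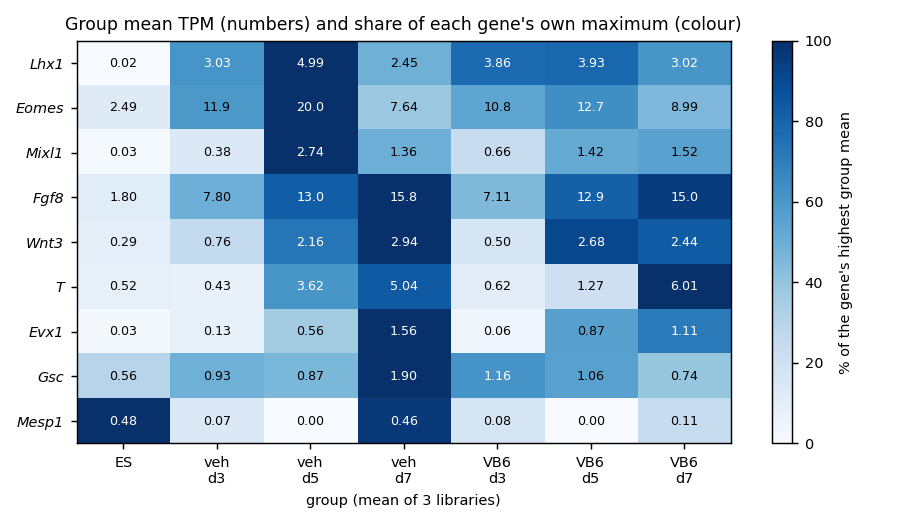
Mean TPM of each gene (rows) in each group of 3 libraries (columns), printed in the cells, with colour giving the percentage of that gene's own highest group mean. In vehicle, Lhx1, Eomes and Mixl1 are highest at day 5 and Fgf8, Wnt3, T, Evx1 and Gsc at day 7. Vehicle day 5 and VB6 day 7 are the groups of short fragments, and along a row TPM and CPM can differ. Fgf8 at day 7 had a mean of 15.8 TPM with vehicle and 15.0 TPM with VB6, but of 8.31 and 5.62 CPM.

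Between genes, levels were compared as TPM, which is per length. In ES cells the order was led by Eomes (2.02 to 3.24 TPM) and Fgf8 (1.24 to 2.18 TPM), whose libraries overlap, and no library of the other 7 genes passed 0.650 TPM. In vehicle day 3 the libraries of Eomes (10.5 to 13.4 TPM), Fgf8 (6.87 to 8.60) and Lhx1 (2.05 to 3.84) did not overlap each other or the genes below. Gsc (0.780 to 1.05 TPM) and Wnt3 (0.690 to 0.860 TPM) were next and overlapped. In vehicle day 7 Fgf8 led with 11.1 to 19.9 TPM, then Eomes with 6.32 to 8.52 and T with 3.94 to 6.02, again without overlap. Below T came Wnt3, Lhx1, Gsc, Evx1 and Mixl1, at means of 2.94, 2.45, 1.90, 1.56 and 1.36 TPM, where the libraries of each gene overlapped those of the gene after it. Mesp1 was last at 0.460 TPM and did not overlap Mixl1. In VB6 day 5 Fgf8 (11.7 to 14.5 TPM) and Eomes (10.2 to 14.3 TPM) overlapped.

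Likeness between genes was measured over the 7 group means of log2 CPM as the root mean square difference after centring each gene on its own mean, and serves here as a description. Among the 8 tested genes, the closest pair was Fgf8 and Wnt3 (0.482), followed by Evx1 and Wnt3 (0.585), and the farthest was T and Lhx1 (2.03). Over the 13741 protein-coding genes compared, those nearest to Eomes were Abca4 (0.113), Kcnk1 (0.143) and Vat1l (0.167), where the median gene was at 1.03. Nearest to T were Kitl (0.343), Itga8 (0.350) and Mmd (0.434), and nearest to Evx1 were Dusp8 (0.176), Jun (0.190) and S100a1 (0.230). Kitl, the ligand of the receptor Kit, was at a mean of 2.06 CPM in ES, 2.52, 13.1 and 15.5 CPM in vehicle days 3, 5 and 7 and 2.72, 7.28 and 23.7 CPM in VB6, a pattern for which it was selected. The nearest to Mixl1 were Pls3, Pilra and Xkr4, to Lhx1 Irs4 and Rasef among others, to Gsc Msl3l2, Nudt6 and Gpr162, to Fgf8 Ptpn13, Lrrc14 and Slc10a3, and to Wnt3 Tpbg, Plekhg2 and Itpripl2.

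**Figure D3:**
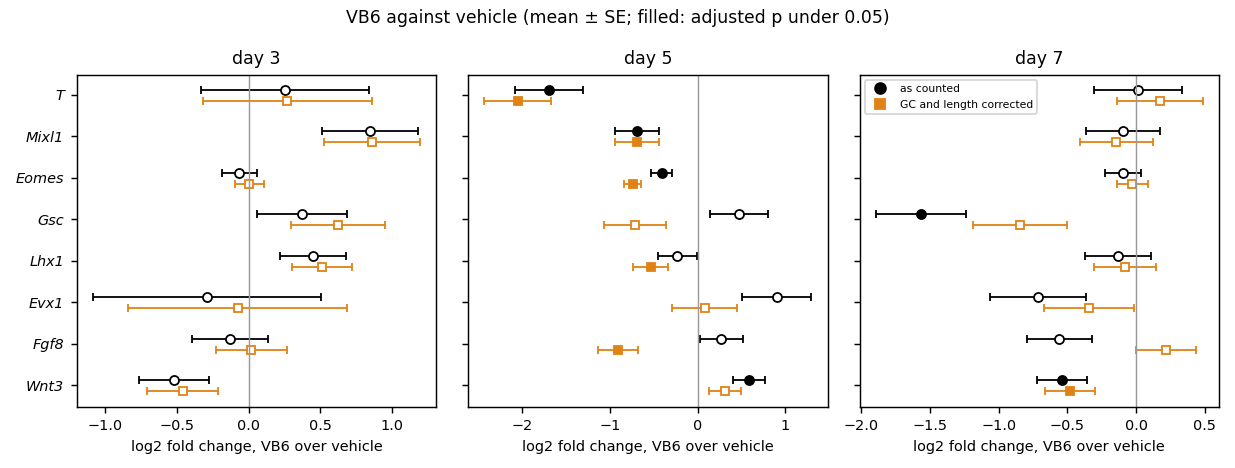
Log2 fold change of VB6 over vehicle (horizontal axes) with its SE for the 8 tested genes at days 3, 5 and 7, as counted (black circles) and corrected for GC content and length (orange squares); filled symbols have an adjusted p under 0.05. No symbol is filled at day 3, T is at -1.70 as counted and -2.05 corrected at day 5, and with the correction Fgf8 changes sign at each day, Gsc at day 5 and Eomes at day 3 (from -0.07 to 0.005).

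Vitamin B6 was compared with vehicle at each day. At day 3, where fragment lengths were alike, 0 of the 8 tested genes were called, beside 4.26% of all genes. DESeq2, which gave an adjusted p to 5 of the 8 (not to Mixl1, Gsc and Evx1), also called 0, and 2 of the 8 had an unadjusted p under 0.05 in edgeR's test. These were Mixl1, higher in all 3 VB6 libraries than in any vehicle library (0.84 ± 0.33, adjusted p = 0.153), and Wnt3, lower in all 3 (-0.52 ± 0.24, adjusted p = 0.237). Lhx1 libraries did not overlap either (0.45 ± 0.23, adjusted p = 0.284), so 3 of 8 genes had no overlap, against 29.1% of all genes. The median change of the 8 genes was 0.09 and that of all genes -0.01.

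At day 5, 4 of the 8 were called as counted, 1 higher and 3 lower, beside 31.2% and 25.5% of all genes (56.7% called). Libraries did not overlap for 4 of 8, beside 63.5% of all genes. T fell with VB6, from 2.24 to 5.47 CPM down to 0.625 to 1.40 CPM without overlap, a log2 fold change of -1.70 ± 0.39 (adjusted p = 0.000627) and of -2.05 ± 0.38 corrected (adjusted p = 0.000126). T passed the test in 15 of 15 alternative settings, with values from -2.05 to -0.99 (adjusted p at most 0.0192). Eomes was lower (-0.41 ± 0.12, adjusted p = 0.00546; -0.74 ± 0.10 corrected, adjusted p = 1.31e-06), as was Mixl1 (-0.69 ± 0.25, adjusted p = 0.0222; -0.69 ± 0.25 corrected, adjusted p = 0.0297). Without VB6 day 5 replicate 1 both lost the call, Eomes at -0.28 (adjusted p = 0.0526) and Mixl1 at -0.64 (adjusted p = 0.0679), and Mixl1 also did so without vehicle day 5 replicate 2 (-0.68, adjusted p = 0.0507). Wnt3 was higher as counted (0.58 ± 0.18, adjusted p = 0.00921) but not corrected (0.31 ± 0.18, adjusted p = 0.186), and without VB6 day 5 replicate 2 it was at 0.48 (adjusted p = 0.0579). Wnt3 and T thus differed in direction as counted at this day. The Wnt3 call held in 11 of 15 settings. It was lost on log2(TPM + 1) (0.216, adjusted p = 0.174) and log2(TPM + 0.1) (0.293, adjusted p = 0.286) with limma. Lhx1 and Fgf8 were not called as counted and were called lower in the corrected fit (-0.54 ± 0.20, adjusted p = 0.0391, and -0.91 ± 0.23, adjusted p = 0.00248), where 5 of 8 were called. Over all genes that fit called 6432 of 17416 at day 5.

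At day 7, 2 of the 8 were called as counted, both lower with VB6, where 17.9% of all genes were lower and 18.6% higher (36.5% called). Libraries did not overlap for 1 of 8, beside 45.3% of all genes. Gsc went from 1.24 to 1.58 CPM with vehicle to 0.241 to 0.619 CPM with VB6, without overlap (-1.57 ± 0.33, adjusted p = 0.000547), and corrected it was at -0.84 ± 0.34 (adjusted p = 0.0738). Wnt3 was lower by a smaller step (-0.54 ± 0.18, adjusted p = 0.0228; -0.48 ± 0.18 corrected, adjusted p = 0.0487), its libraries overlap, and the call was lost without any of 3 libraries (vehicle day 7 replicates 1 and 2 and VB6 day 7 replicate 1; adjusted p = 0.0523 to 0.156). On log2(TPM + 1) and log2(TPM + 0.1) with limma the call was lost too (-0.195 and -0.259, adjusted p = 0.242 and 0.369). T, which had been lower at day 5, was at 0.02 ± 0.32 (adjusted p = 0.982), with libraries from 2.65 to 6.69 CPM with VB6 and from 4.01 to 6.36 CPM with vehicle. Without VB6 day 7 replicate 3, 5 of the 8 genes were called lower, Fgf8, Lhx1 and Evx1 in addition to Gsc and Wnt3. Beside these values, visceral endoderm markers numbered 9 of 12 higher and 0 lower with VB6 at day 5 (9 and 0 corrected), and 4 higher and 3 lower at day 7 (7 and 0 corrected). Epiblast markers numbered 4 higher and 4 lower of 8 at day 5 (1 and 4 corrected), and 0 higher and 5 lower at day 7 (0 and 5 corrected). Over all genes 31.2% were higher and 25.5% lower at day 5 as counted. Corrected, 6432 of 17416 genes were called at day 5 and 4535 at day 7.

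Whether the difference between VB6 and vehicle itself changed between days was tested by 1 F test over the 3 days. It was called for 5 of the 8 genes (T, Mixl1, Gsc, Evx1 and Wnt3), beside 60% of all genes. The call of Evx1 was lost without any of 7 libraries (vehicle day 5 replicates 1 and 3, vehicle day 7 replicate 1, VB6 day 5 replicates 2 and 3, VB6 day 7 replicates 1 and 2; adjusted p = 0.0567 to 0.107). For T the difference at day 5 was below that at day 3 by 1.95 on the log2 scale (-1.95 ± 0.71, adjusted p = 0.0258), and that at day 7 above that at day 5 (1.71 ± 0.50, adjusted p = 0.00546). For Wnt3 the difference went the other way, up by 1.10 ± 0.31 from day 3 to day 5 (adjusted p = 0.00446) and by -1.12 ± 0.26 from day 5 to day 7 (adjusted p = 0.000671). In the corrected fit T (adjusted p = 0.00151), Mixl1 (0.0125), Gsc (0.0222) and Wnt3 (0.0235) kept an adjusted p under 0.05, Evx1 did not (0.772), and 3 others passed (Eomes, Fgf8 and Lhx1), so 7 of 8 were called. Over all genes that fit called 7493 of 17416.

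**Figure D4:**
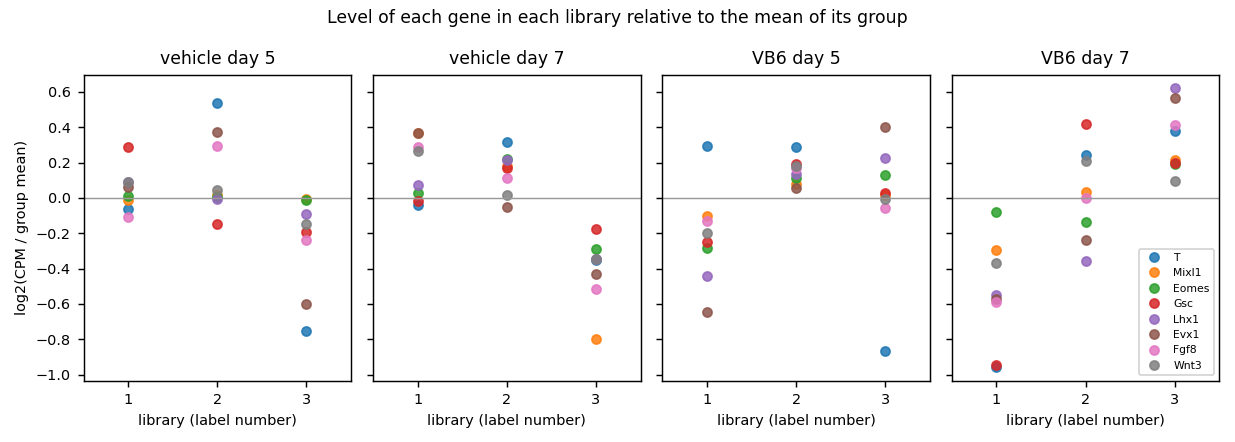
Level of each tested gene in each library relative to the mean of its own group, as log2 of the ratio (vertical axis), for the 4 groups of days 5 and 7 (panels; horizontal axis: library by its label number). In vehicle day 7 all 8 genes are lowest in replicate 3, and in VB6 day 7 7 of 8 are lowest in replicate 1.

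Within groups, some libraries were low or high for most of the genes at once. In vehicle day 7, replicate 3 was the lowest library for 8 of 8 genes, with a median deviation of -0.48 (log2) for the 8 genes, where the median of all genes was 0.00. In VB6 day 7, replicate 1 was lowest for 7 of 8 (median -0.68) and replicate 3 highest for 6 of 8 (median 0.52), where the medians of all genes were -0.01 and 0.02. Vehicle day 5 replicate 3 and VB6 day 5 replicate 1 were also lowest for 7 of 8 genes. In VB6 day 7 the visceral endoderm markers went the other way, with a median deviation of 0.25 in replicate 1 and -0.13 in replicate 3, and epiblast markers had -0.28 and 0.17. The relatives (-0.43 and 0.46), the neural markers (-0.32 and 0.38) and the intermediate mesoderm markers (-0.28 and 0.33) moved with the 8 genes in these libraries. By smaller steps so did anterior visceral endoderm (-0.178 and 0.227), trophoblast (-0.048 and 0.234), other streak (-0.099 and 0.174), FGF (-0.157 and 0.143), Nodal (-0.141 and 0.105) and Wnt genes (-0.088 and 0.051). BMP input (0.009 and 0.108) and naive markers (0.109 and 0.04) did not. In vehicle day 7 replicate 3 visceral endoderm markers were at -0.07. These deviations describe the libraries and were not tested, since they were seen in the same data.

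The pathways that act on these genes are described here by lists of genes. From ES to vehicle day 3, where 33.1% of all genes rose and 31.8% fell, 13 of 21 tested Wnt pathway genes rose and 6 fell, with a median of 0.76 against 0.01 for all genes. They included the TCF/LEF factor Lef1 (3.44 ± 0.16, adjusted p = 9.16e-15), the feedback inhibitor Dkk1 (4.60 ± 0.26, adjusted p = 3.40e-13) and the receptor Fzd7 (1.495 ± 0.05, adjusted p = 4.15e-17), while Fzd5 fell (-1.34 ± 0.06, adjusted p = 5.60e-15). In the Nodal pathway 11 of 17 rose and 3 fell, among them the targets Lefty1 (3.29 ± 0.14, adjusted p = 1.18e-15) and Lefty2 (2.42 ± 0.11, adjusted p = 3.66e-15). FGF pathway genes were divided, with 7 of 15 higher and 6 lower. Fgf5, a ligand of the postimplantation epiblast, had 0 counts in ES and 92.3 ± 0.533 CPM (SD, n = 3) in vehicle day 3. Of 10 genes of BMP input 6 rose and 3 fell.

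From vehicle day 3 to day 7, when T, Evx1 and Wnt3 rose, 10 of 10 genes of BMP input rose (34.3% of all genes rose and 33.1% fell), with a median of 1.89 against -0.01 for all genes. Bmp2, a ligand, rose by 4.17 ± 0.22 (adjusted p = 3.83e-14) and Id3, a target, by 2.33 ± 0.07 (adjusted p = 2.21e-18). Of 21 Wnt pathway genes 10 rose and 6 fell: Wls, which carries Wnt ligands to the surface, went from 11.9 ± 1.82 to 170 ± 7.48 CPM (3.84 ± 0.10, adjusted p = 1.18e-19), Sp5, a Wnt target, rose (4.20 ± 0.31, adjusted p = 2.25e-11), and Lef1 fell (-2.29 ± 0.15, adjusted p = 1.53e-12). Of 17 Nodal pathway genes 8 rose and 8 fell, and Lefty2 and Lefty1 were among the latter (-3.66 ± 0.12, adjusted p = 8.27e-18, and -3.08 ± 0.14, adjusted p = 1.67e-15). Of 15 FGF pathway genes 4 rose and 7 fell, with Fgf4 from 132 ± 6.11 to 6.14 ± 0.240 CPM. Of 23 other genes of the streak, node and nascent germ layers 13 rose and 6 fell, and those with the smallest p were Frzb (6.32 ± 0.21), Pdgfra (2.53 ± 0.11), Sox17 (3.17 ± 0.14) and Foxa2 (2.68 ± 0.13). Among 7 relatives and cofactors of the 9 genes 5 rose and 0 fell.

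With VB6 at day 3, the pathway genes called were few. In the Wnt list 3 of 21 were lower and 1 higher: Lef1 was at 29.2 ± 1.47 CPM with VB6 and 55.2 ± 8.85 CPM with vehicle (-0.92 ± 0.13, adjusted p = 0.000327), Porcn, which lipidates Wnt ligands, at -0.70 ± 0.11 (adjusted p = 0.000691), Wnt8a at -0.83 ± 0.23 (adjusted p = 0.0433), and the inhibitor Sfrp1 was higher (0.42 ± 0.08, adjusted p = 0.00351). The Nodal list had 2 of 17 lower (the convertase Pcsk6, -0.60 ± 0.11, and Lefty2, -0.38 ± 0.10) and 0 higher. The FGF list had 3 of 15 lower (Fgf15, -0.66 ± 0.11; Spry4, -0.54 ± 0.10; Etv4, -0.55 ± 0.12) and 0 higher. Of BMP input 0 of 10, of the other streak genes 1 of 23 (Zic2, -0.38 ± 0.10) and of the relatives 0 of 7 were called. Over all genes 2.77% were called lower and 1.49% higher.

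At days 5 and 7 the calls in the lists moved with the correction, and over all genes 31.2% were higher and 25.5% lower at day 5 and 18.6% and 17.9% at day 7. Corrected, 6432 of 17416 genes were called at day 5 and 4535 at day 7, in either direction. At day 5, 7 of 10 genes of BMP input were higher with VB6 as counted and 5 corrected, with Id3 at 1.38 ± 0.07 (0.71 corrected, adjusted p = 2.97e-09). The Wnt list had 7 higher and 3 lower as counted against 3 and 4 corrected. Its target Sp5 was at 7.99 ± 1.35 CPM with VB6 and 2.10 ± 0.705 CPM with vehicle (1.92 ± 0.26; 1.02 corrected, adjusted p = 0.00101), so it and T, both Wnt targets, differed in direction. The Nodal list had 7 higher and 3 lower as counted against 1 and 4 corrected, the FGF list 5 and 5 against 3 and 6, the other streak genes 11 and 4 against 5 and 6, and the relatives 4 and 1 against 0 and 2. At day 7 Nodal was lower with VB6 (-0.93 ± 0.11; -0.73 corrected, adjusted p = 2.83e-07), as were Lefty1 (-1.81 ± 0.19; -1.37 corrected, adjusted p = 1.93e-06) and Fgf5 (-0.69 ± 0.10; -0.78 corrected, adjusted p = 1.01e-06). The lists at day 7 had as counted 5 higher and 3 lower (Wnt), 4 and 5 (Nodal), 2 and 4 (FGF), 2 and 3 (BMP input), 4 and 2 (other streak genes) and 1 and 2 (relatives). Corrected, in the same order, they had 3 and 2, 2 and 4, 1 and 3, 3 and 2, 5 and 1, and 1 and 0.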

How the data were processed

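The authors deposited expected counts (estimated counts per gene, not normalized, with 26.9 to 30.5% of values above 0 not whole), TPM and FPKM for 21 libraries. The build is mm10, per the submitters' processing notes, and no source used here gives an aligner, a counting program or an annotation. Per the labels' protocols total RNA came from TRIzol, but a step of small RNA enrichment is described too, and the kind of library is uncertain. Expected counts were rounded to whole numbers, as the design provided for. The 18901 genes passing edgeR's filterByExpr (7 groups) were fitted together after TMM normalization with a mean per group (edgeR 4.0.16 in R 4.3.3, quasi-likelihood test), and Benjamini-Hochberg adjustment ran over all of them in each comparison. Each SE is the absolute log2 fold change over the square root of F. The test was also checked on simulated data, for VB6 against vehicle at day 5. The simulation gave every gene the same spread and no difference in fragment length between these groups. Its changed genes were drawn from those above a minimum total count. The check therefore does not cover the short fragments or the genes of low counts.

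The deposited FPKM values gave the effective length of a gene in a library and so the fragment length. The deposited TPM values were used for levels between genes and, as log2(TPM + 1) and log2(TPM + 0.1) with limma 3.58.1, as alternatives. The others were DESeq2 1.42.0, edgeR with DESeq2's size factors, testing every gene, keeping genes with a CPM of at least 1 in 3 libraries, fitting the compared groups alone, a replicate block, omitting each library in turn, and the correction (per library a robust spline with 5 degrees of freedom over GC content and effective length, entered as an offset, for 17416 genes or 92.1%).

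The 9 genes, the pathway lists (Wnt, Nodal, FGF, BMP input, other streak genes, relatives) and the marker lists (visceral and anterior visceral endoderm, epiblast, naive stem cells, trophoblast, neural and midbrain-hindbrain, intermediate mesoderm) were chosen with earlier results of these data known. Named genes followed a rule: all 9 genes, for each tested one the 3 protein-coding genes nearest in pattern with a CPM of at least 1 in their highest group, and up to 4 genes of a list with the smallest p; 2 genes that it named are not reported here. Of 18 Nodal pathway symbols 17 were found. The annotation used for positions, GC content and length was GENCODE M21.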

Additional observations from a re-analysis of the deposited data

Results flagged for a closer look

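The difference between VB6 and vehicle was not the same at days 3, 5 and 7 for 5 of the 8 tested genes. The test was edgeR's F test over the 3 days with adjustment over all genes. It called 11347 of 18901 genes (60%), so the count of 5 is near the share of all genes. That count is read as no result about the tested genes as a set. The adjusted p was 0.00942 for T, 0.00984 for Mixl1, 0.00061 for Gsc, 0.0338 for Evx1 and 0.00102 for Wnt3. Evx1 lost the call without any of 7 libraries (0.0567 to 0.107) and on log2(TPM + 1) and log2(TPM + 0.1) with limma (0.117 and 0.203), as did T on log2(TPM + 0.1) (0.0552) and Wnt3 on both (0.0738 and 0.0842). Without vehicle day 5 replicate 2, T was at the threshold (0.05). T was at 0.25 ± 0.58, -1.70 ± 0.39 and 0.02 ± 0.32 (log2 fold change ± SE) at days 3, 5 and 7. Mixl1 was at 0.84 ± 0.33, -0.69 ± 0.25 and -0.10 ± 0.27, and Wnt3 at -0.52 ± 0.24, 0.58 ± 0.18 and -0.54 ± 0.18. Gsc was at 0.37 ± 0.31, 0.47 ± 0.33 and -1.57 ± 0.33, and Evx1 at -0.29 ± 0.80, 0.90 ± 0.40 and -0.71 ± 0.35. Fragments were short in vehicle at day 5 and in VB6 at day 7, where vitamin B6 and fragment length cannot be told apart. In the corrected fit Eomes (adjusted p = 0.000119), Fgf8 (0.0118) and Lhx1 (0.0157) were called as well, and Evx1 was not (0.772). That fit called 7493 of 17416 genes.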

How the results depend on the processing

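Of 857 values of single genes under alternatives other than leaving out a library, 772 kept their direction and their side of the threshold, 33 lost the call, 23 gained it and 29 changed sign. In 26 of those 29 neither value passed the test, and the other 3 are all Fgf8 under the correction for GC content and length. Of 672 values with a library left out, 596 kept direction and side, 39 lost the call, 14 gained it and 23 changed sign, none of the last with a call. Same-numbered libraries did not deviate together (correlations from -0.148 to 0.08, with 0 of 33 pairs over 0.1), so the numbers were not treated as pairing; with the replicate block 0 of 96 single-gene calls changed, and 771, 10634 and 6816 genes were called for VB6 against vehicle at days 3, 5 and 7 (805, 10716 and 6899 without it). The cause of the changes that follow was not tested. DESeq2 withheld an adjusted p for some low genes, which are not counted. Depth limits Mixl1, Lhx1 and Evx1 in ES cells, with 3, 3.28 and 4 counts over the 3 libraries, and Mesp1, with 50 counts in all.

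The number of genes called for VB6 against vehicle at day 3 was 1393 with no filter, 2104 with only the groups compared, 277 and 200 on log2(TPM + 1) and log2(TPM + 0.1), 1224 corrected and 191 to 888 with a library left out. Corrected, it was 6432 at day 5, 4535 at day 7 and 7493 for the difference between days. On the TPM scale the median of all genes shifted by -0.184 to 0.318 from its value as counted with a pseudocount of 1, and the share of calls that were higher went from 34.9 to 20.6% (VB6 against vehicle, day 3), 55.1 to 31.1% (day 5) and 51.1 to 82.9% (day 7), from 48.9 to 71.3%, 53.1 to 37.9% and 50.8 to 37.3% (vehicle day 5 against 3, vehicle day 7 against 5, VB6 day 3 against ES), and from 53.1 to 67.5%, 50 to 75.7% and 50.9 to 72.9% (VB6 day 5 against 3, 7 against 5, 7 against 3).

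Of the 8 genes, VB6 against vehicle at day 7 called 1 under both TPM settings and corrected, and 1 to 5 with a library left out. VB6 day 7 against day 5 called 2 under both TPM settings and 2 to 4 with a library left out. The difference between days called 3 on log2(TPM + 0.1), and vehicle day 7 against day 5 called 4 corrected.

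Values that changed sign, as log2 fold changes: for T in VB6 day 3 against ES (-0.008), 0.0 with DESeq2, 0.031 with no filter, 0.008 with only the groups compared, 0.064 and 0.074 on the TPM scales and 0.098 corrected, and -0.271 to 0.375 with a library left out. For T at day 7, VB6 against vehicle (0.015), -0.002 with no filter and -0.003 with only the groups compared. On log2(TPM + 1) and log2(TPM + 0.1), Fgf8 at day 5 was at -0.005 and -0.004, Mixl1 at day 7 at 0.115 and 0.21, Eomes at 0.214 and 0.238 and Lhx1 at 0.181 and 0.228, and in VB6 day 7 against day 5 Mixl1 was at 0.052 and 0.077 and Fgf8 at 0.171 and 0.18. Corrected, Eomes and Fgf8 at day 3 were at 0.005 and 0.019, Gsc and Fgf8 at day 5 at -0.711 and -0.911, Fgf8 at day 7 at 0.219, Gsc in vehicle day 5 against day 3 at 0.667, Fgf8 in vehicle day 7 against day 5 at -0.537, Eomes in VB6 day 5 against day 3 at -0.224 and Fgf8 in VB6 day 7 against day 5 at 0.594. With a library left out, VB6 against vehicle at day 3 ran from -0.01 to 0.636 for T, -0.133 to 0.015 for Eomes, -0.656 to 0.139 for Evx1 and -0.263 to 0.046 for Fgf8. At day 7 it ran from -0.222 to 0.32 for T, -0.372 to 0.135 for Mixl1, -0.222 to 0.025 for Eomes and -0.591 to 0.075 for Lhx1. VB6 day 5 against day 3 ran from -0.022 to 0.168 for Eomes and -0.216 to 0.114 for Lhx1, and VB6 day 7 against day 5 from -0.353 to 0.283 for Evx1 and -0.458 to 0.025 for Fgf8.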
